A study of Mus musculus with 12 samples.

Results

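Chemokine receptors were followed in cultured mouse macrophages of the type called fetal liver alveolar-like (FLAM), which are grown from fetal liver and serve as a model of the macrophages of the lung air space. The receptors were chosen by gene symbol, Ccr1, Ccr2, Ccr7, Ccrl2, Cxcr4 and Cx3cr1, and make up 6 of the 40847 genes in the count table. Of these, 5 were among the 14749 genes tested, and Ccr7 was not, because its counts were too low in each group. The study crossed TGFβ with Pam3CSK4 (Pam3), a synthetic lipopeptide that activates TLR2, in 12 RNA libraries of polyadenylated RNA.

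All 4 groups were cultured in GM-CSF at 30 ng/ml and held 3 libraries each. The untreated group received neither agent. The TGFβ group was kept in recombinant human TGFβ1 at 20 ng/ml. The Pam3 group received Pam3 at 25 ng/ml for 18 h without TGFβ. The Pam3+TGFβ group received Pam3 at the same dose and for the same time in cells kept in TGFβ1. Strain and genotype are not given in the labels, and the labels do not say whether replicates came from separate animals or cultures, so a p-value measures only the spread between these libraries, which may be technical.

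Chemokine receptors are membrane-spanning receptors coupled to inhibitory G proteins, and ligand binding directs migrating leukocytes up a gradient of chemokine. After activation they are phosphorylated by G protein-coupled receptor kinases and switched off by arrestins, while RGS proteins shorten the G protein signal. Ccr1 and Ccr2 bring monocytes to inflamed tissue, Ccr7 guides antigen-presenting cells to lymph nodes, Cxcr4 holds cells in bone marrow and other Cxcl12-rich sites, Cx3cr1 binds the membrane-tethered chemokine fractalkine, and Ccrl2 is an atypical receptor that binds chemerin without known signalling of its own.

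Library totals ran from 34036650 to 44374115 counts. All 8 macrophage markers, among them Lyz2, Csf1r, Adgre1 and Ptprc, had at least 1323 counts in every library. Their summed level was 32400 to 36600 CPM in untreated, 17100 to 18000 in TGFβ, 35400 to 36600 in Pam3 and 26200 to 26900 in Pam3+TGFβ libraries. With TGFβ in resting cells, mean Itgam went from 1090 to 38.8 CPM, Lyz2 from 29800 to 15200 and Adgre1 from 303 to 145. Mertk was 223 and 222 CPM, and Fcgr1 went from 81.1 to 91.3 CPM. The 7 alveolar macrophage markers did not move together: with TGFβ in resting cells the mean of Siglecf went from 32.1 to 300 CPM, while that of Marco went from 2150 to 123 CPM and that of Fabp4 from 31.1 to 0.132 CPM. Cd3e, Cd3g, Ncr1, Mpo, Hbb-bs, Ttr, Col1a2 and Fcer1a, which mark other cell types, were at 0 in every library, but other genes of such lists were detected at low counts: Klrb1c (natural killer cell) at 7 to 50, Pdgfra (fibroblast) at 11 to 43, Cpa3 (mast cell) at up to 46, Kdr (endothelium) at up to 52 and Epcam (epithelium) at up to 84. Some differed between the groups, such as Epcam with 0.0453 CPM in untreated cells and 1.6 CPM with TGFβ, and Kdr with 0.865 and 0.082 CPM. Over the 4 groups, the summed level of the 6 neutrophil markers ran from 0.371 to 8.3 CPM (counts scaled to library size). That sum includes the receptor Cxcr2, which had a mean of 6.74 CPM in the TGFβ group, where the sum was 6.77 to 8.3 CPM. The sum of the 6 dendritic cell markers other than Ccr7 ran from 16.6 to 24.7 CPM. That of the 4 monocyte markers other than Ccr2 and Cx3cr1 ran from 66.4 to 94.1 CPM. The part of all these markers in the receptor changes was not tested. The mitochondrial share of counts was above 0.2% in 5 libraries (untreated 3, TGFβ 1 and 3, Pam3 2 and 3) and at most 0.113% in the other 7, which include all Pam3+TGFβ libraries. Results that changed without those 5 libraries are given with that value beside them. In a bulk sample, fewer cells of a type and less RNA per cell cannot be told apart.

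Among the 6 genes, 4 lie on mouse chromosome 9 (GRCm39, GENCODE annotation). Ccr1 (chr9:123762161-123768734, minus strand) and Ccr2 (chr9:123901982-123913594, plus strand) belong to the same receptor cluster, while Ccrl2 (chr9:110883554-110886591, minus strand) and Cx3cr1 (chr9:119877749-119898945, minus strand) lie elsewhere on that chromosome. Cxcr4 is at chr1:128515936-128520044 on the minus strand, and Ccr7 at chr11:99035022-99045911 on the minus strand. Each canonical transcript has 2 exons, except that of Ccr7 with 3, and its largest exon holds between 66.9% (Ccr2) and 97.4% (Cx3cr1) of its length. Cx3cr1 overlaps the long noncoding gene Gm33858 and Ccr7 overlaps Gm57398, each on the opposite strand. The strand setting of the counting is not given in the sources used here, so reads of these genes and their antisense partners may not have been told apart where they overlap.

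The 250 bases directly before the outermost annotated start are shown for 3 of the receptors. Ccrl2 was the receptor with the largest response to Pam3 in TGFβ-treated cells, Ccr2 had the largest TGFβ effect, and Cxcr4 fell with both agents. Capitals mark a match to the NF-κB consensus, the only motif searched that was found in these 3 windows, and bases are written in the direction of the gene.
Ccrl2 promoter: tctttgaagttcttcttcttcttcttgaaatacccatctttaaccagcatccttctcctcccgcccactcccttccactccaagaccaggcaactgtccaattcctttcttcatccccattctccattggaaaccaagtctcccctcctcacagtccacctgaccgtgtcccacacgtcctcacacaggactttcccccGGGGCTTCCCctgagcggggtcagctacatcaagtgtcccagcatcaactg
Ccr2 promoter: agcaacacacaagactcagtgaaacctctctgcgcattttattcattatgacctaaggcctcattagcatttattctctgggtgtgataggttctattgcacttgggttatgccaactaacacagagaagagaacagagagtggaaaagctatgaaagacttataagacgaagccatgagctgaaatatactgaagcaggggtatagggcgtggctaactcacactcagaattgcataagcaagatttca
Cxcr4 promoter: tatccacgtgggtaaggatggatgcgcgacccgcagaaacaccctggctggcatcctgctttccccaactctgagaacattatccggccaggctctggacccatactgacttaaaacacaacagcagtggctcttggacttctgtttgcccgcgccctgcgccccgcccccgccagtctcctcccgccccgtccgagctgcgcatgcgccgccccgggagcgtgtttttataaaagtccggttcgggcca
The Ccrl2 window (chr9:110886592-110886841, minus strand) holds GGGGCTTCCC, which matches on both strands and begins 51 bases before the start. No match was found in the Ccr2 window (chr9:123901732-123901981, plus strand) or the Cxcr4 window (chr1:128520045-128520294, minus strand). The letters searched on both strands were the NF-κB consensus, the AP-1 site TGANTCA, the SMAD palindrome GTCTAGAC, the interferon response core GAAANNGAA and the PU.1 site GAGGAAGT. Among 21757 windows of the same length before protein-coding genes, 6.94% held the NF-κB consensus, 6.46% the AP-1 site, 7.73% the interferon core, 2.13% the PU.1 site and 0.23% the SMAD palindrome. Ccr1 also had an NF-κB match (GGGAGGCTCC, 69 bases before the start) and Ccr7 an AP-1 match (122 bases before the start), and none was found for Cx3cr1. Matches depended on the window: around the start of the canonical Ccrl2 transcript, from 250 bases before to 50 after, none of the 5 motifs was found, and there Ccr2 had 1 interferon core match. GC content was 53.2% in the Ccrl2 window, 41.6% in that of Ccr2 and 61.6% in that of Cxcr4, beside a median of 51.2% over the same 21757 windows. A match of letters is a description and shows no binding.

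The tested receptors were mostly lower with TGFβ and moved in both directions with Pam3. Genes were called at an adjusted p under 0.05 in edgeR's quasi-likelihood test, with Benjamini-Hochberg adjustment over the 14749 tested genes. With TGFβ alone, all 5 tested receptors were lower, with a median log2 fold change of -0.96 beside -0.01 over all tested genes, of which 28.1% were called lower and 22.9% higher. In Pam3-treated cells TGFβ lowered 4 of the 5 and raised Ccrl2, against 23.8% of all tested genes called lower and 21.5% higher. Pam3 without TGFβ raised Ccr1, Ccrl2 and Cx3cr1 and lowered Cxcr4, so 3 of 5 were higher and 1 of 5 lower, beside 9.62% and 8.66% of all tested genes. Pam3 in TGFβ-treated cells again raised those 3 and lowered Ccr2 and Cxcr4, beside 20.4% called higher and 18.1% called lower over all tested genes. The Pam3 response differed with TGFβ for 2 of the 5, Ccrl2 upward and Cxcr4 downward, and over all tested genes this difference was called upward for 10.3% and downward for 5.67%. Without the 5 libraries of high mitochondrial share, which leaves the TGFβ and Pam3 groups 1 library each that is assumed to vary like the others, the calls numbered 3 for TGFβ alone, 5 for TGFβ with Pam3, 3 for Pam3 without TGFβ, 3 for Pam3 with TGFβ and 1 for the difference.

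**Figure D1:**
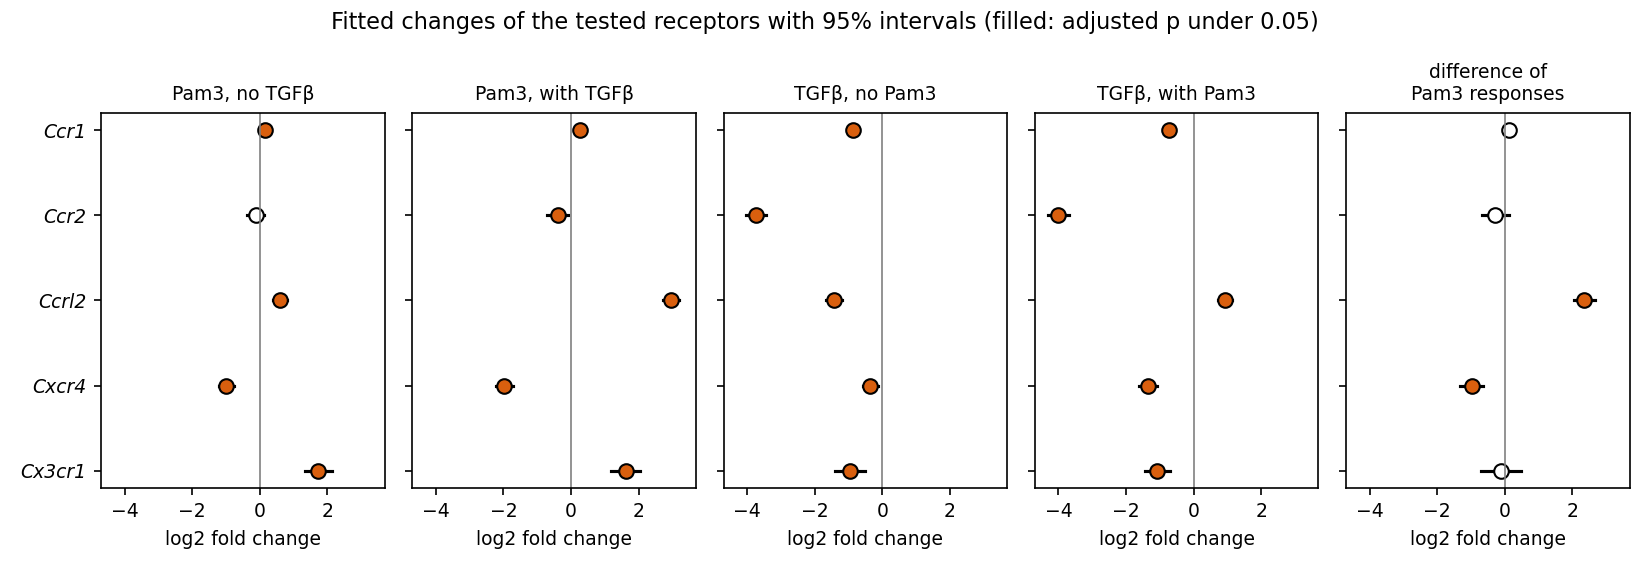
Log2 fold changes (x axis) of the 5 tested receptors (rows) in the 4 comparisons and in the difference between the Pam3 responses with and without TGFβ, with 95% intervals as lines; filled points had an adjusted p under 0.05. Ccr2 sits near -3.73 and -4.01 in the TGFβ panels, and Ccrl2 is the receptor whose TGFβ effect lies on opposite sides of 0 with and without Pam3.

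Levels of the receptors can be compared with each other only per length of transcript. In untreated cells the order was Ccr1 at 120 ± 4.4 CPM per kb (SD, n = 3), Ccr2 at 39.7 ± 5.11, Cxcr4 at 11.3 ± 1.0, Ccrl2 at 4.16 ± 0.331, Cx3cr1 at 0.52 ± 0.047 and Ccr7 at 0.00957 CPM per kb, and no neighbours in this order overlapped. Ccr1 led in each of the 4 groups. In TGFβ-treated cells Cxcr4 (8.78 ± 0.611 CPM per kb) stood above Ccr2 (3.0 ± 0.14), the reverse of their order without TGFβ. With Pam3 alone, the ranges of Ccrl2 (6.29 ± 0.507 CPM per kb) and Cxcr4 (5.68 ± 0.715) overlapped. With both agents Ccrl2 came directly after Ccr1, at 12 ± 0.394 CPM per kb, and Ccr2 (2.26 ± 0.385) and Cxcr4 (2.25 ± 0.341) overlapped.

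**Figure D2:**
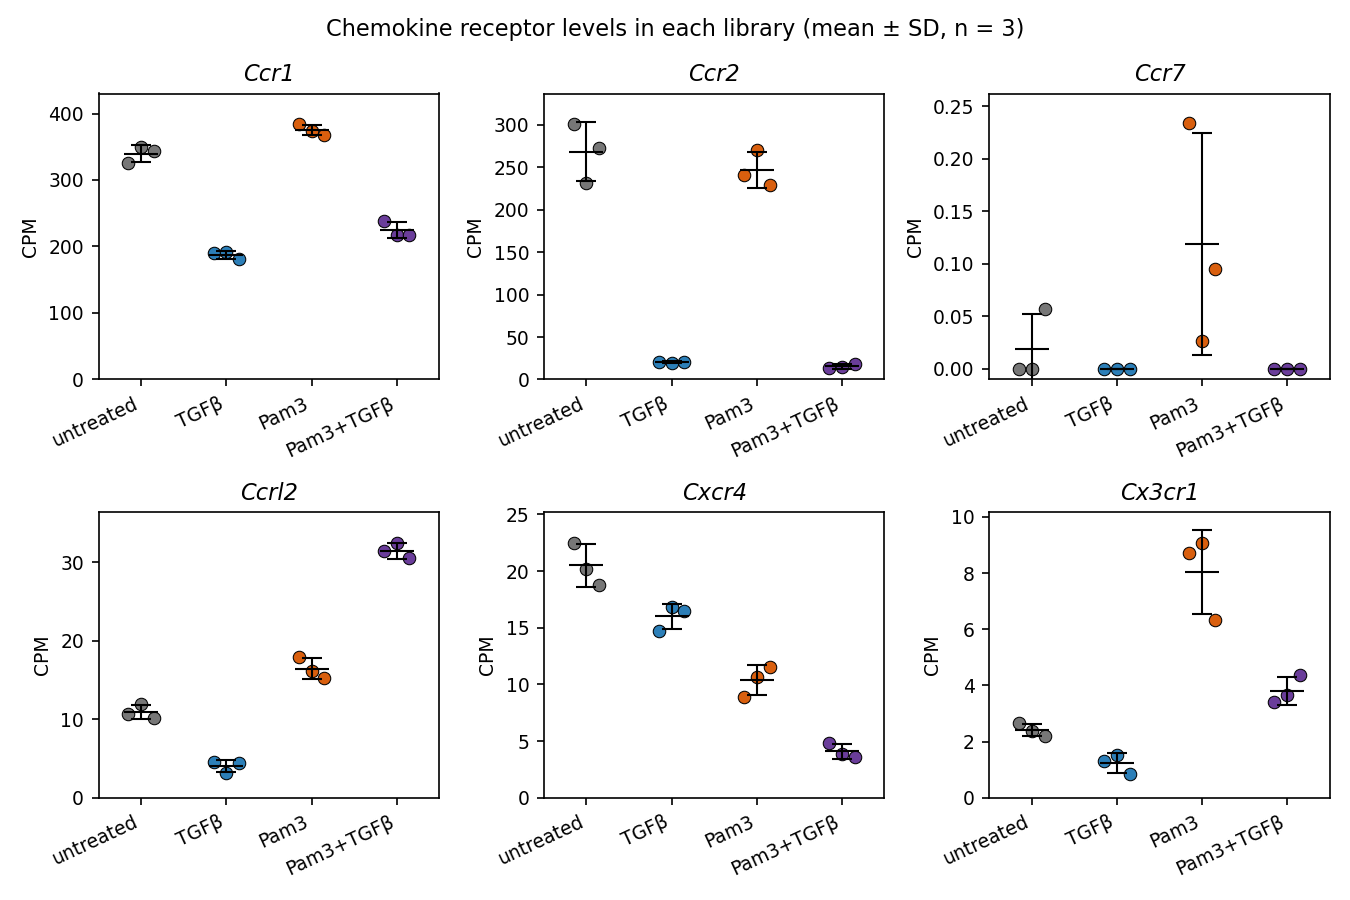
Level of each receptor in CPM (y axes, each with its own scale) in the 12 libraries (points, 3 per group) with the group mean and SD as bars. Ccr1 and Ccr2 separate by TGFβ, Ccrl2 is highest in all 3 Pam3+TGFβ libraries (30.5 to 32.5 CPM), and Ccr7 stays under 0.3 CPM in every library.

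Ccr1 is a receptor for inflammatory CC chemokines such as Ccl3, Ccl6 and Ccl9. Its level was 326, 350 and 343 CPM in untreated libraries 1 to 3, 190, 191 and 181 CPM with TGFβ, 384, 374 and 368 CPM with Pam3, and 238, 218 and 218 CPM with both agents. Every library with TGFβ was below every library without it, and within each of these settings the Pam3 libraries were the higher ones without overlap. The TGFβ effect was a log2 fold change of -0.86 (adjusted p = 1.28e-14, SE 0.0441) without Pam3 and -0.74 (adjusted p = 2.74e-13, SE 0.044) with it. The rise with Pam3 was small, 0.15 on the log2 scale (adjusted p = 0.0204, SE 0.0437) without TGFβ and 0.26 (adjusted p = 2.88e-05, SE 0.044) with it, and the difference between these responses was not called (0.12, 95% interval -0.01 to 0.24, adjusted p = 0.245). The call for Pam3 without TGFβ was lost without untreated library 1 (0.12, adjusted p = 0.109), without Pam3 library 1 (0.13, adjusted p = 0.102) or without Pam3 library 2 (0.15, adjusted p = 0.0657). Without the 5 libraries of high mitochondrial share, the Pam3 responses of Ccr1 were 0.19 (adjusted p = 0.201) without TGFβ and 0.22 (adjusted p = 0.0571) with it.

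Ccr2, the receptor for Ccl2 that marks inflammatory monocytes, showed the largest TGFβ effect of the 5 tested receptors. Untreated libraries 1 to 3 held 301, 232 and 273 CPM, and the TGFβ libraries 20.7, 19.2 and 20.9 CPM. Pam3 libraries held 241, 270 and 229 CPM, and Pam3+TGFβ libraries 13.4, 14.2 and 18.3 CPM. All 6 libraries with TGFβ were thus far below all 6 without it, while untreated and Pam3 libraries overlapped. TGFβ lowered Ccr2 13.3-fold without Pam3 (log2 fold change -3.73, adjusted p = 1.07e-09, SE 0.133) and 16.1-fold with Pam3 (-4.01, adjusted p = 8.2e-10, SE 0.136). In resting cells 268 of the 14749 tested genes had a lower log2 fold change with TGFβ than Ccr2, and in Pam3-treated cells 158 did. Beside this, the monocyte marker Nr4a1 was 3.38 CPM in untreated cells and 0.589 CPM with TGFβ, while Ly6c2 was 1.25 and 1.39 CPM (27.4 CPM with both agents) and Spn 78.9 and 79.8 CPM. The summed level of the 4 monocyte markers other than receptors, among them Ly6c2, Nr4a1 and Spn, was 83.1 to 94.1 CPM in untreated, 78.3 to 84.5 CPM in TGFβ, 66.4 to 73.1 CPM in Pam3 and 78.8 to 84.5 CPM in Pam3+TGFβ libraries. Their part in the Ccr2 result was not tested.

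Pam3 had little effect on Ccr2 by comparison. Without TGFβ the log2 fold change was -0.12 (95% interval -0.38 to 0.13, adjusted p = 0.549). In TGFβ-treated cells it was -0.40 (adjusted p = 0.0378, SE 0.134), but this call ended without any of 6 single libraries, namely untreated 3, TGFβ 1, 2 or 3, or Pam3+TGFβ 1 or 2 (adjusted p from 0.0539 to 0.114), and without the 5 libraries of high mitochondrial share (-0.33, adjusted p = 0.431). With the replicate number as a block it was -0.40 at an adjusted p of 0.0659, and with the mitochondrial share as a covariate -0.37 at 0.0743. The difference between the Pam3 responses was not called (-0.28, 95% interval -0.67 to 0.12, adjusted p = 0.38), although without Pam3+TGFβ library 3 it was (-0.45, adjusted p = 0.0358).

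Ccr7, which guides mature dendritic cells towards the chemokines Ccl19 and Ccl21, was too low to judge in all 4 comparisons and in the difference of responses. Its counts in libraries 1 to 3 were 0, 0 and 2 in untreated cells and 9, 1 and 3 with Pam3. All 6 libraries with TGFβ had 0 counts, which allows a level of up to 0.0786 CPM in the TGFβ group and 0.0785 CPM in the Pam3+TGFβ group (3 counts per library, counting error only). The untreated and Pam3 counts overlapped, and 9 of the 13 counts of the Pam3 group came from 1 library. Of the other dendritic cell markers, Flt3 had at most 1 count in a library, Dpp4 at most 2, Cd209a at most 5 and Fscn1 at most 11, while Clec9a had 508 to 832 counts and Zbtb46 42 to 179. No library reached 10 counts of Ccr7, the minimum used here to judge a comparison. A stretch of 136 bases of the Ccr7 transcript is shared with the antisense gene Gm57398.

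Cxcr4, the receptor for Cxcl12, was lowered by both agents and most by their combination. Its level was 22.5, 20.2 and 18.8 CPM in untreated libraries 1 to 3, 14.7, 16.8 and 16.5 CPM with TGFβ, 8.92, 10.7 and 11.5 CPM with Pam3, and 4.8, 3.88 and 3.61 CPM with both. None of the 4 groups overlapped another. Pam3 changed it by -0.99 on the log2 scale (adjusted p = 1.95e-07, SE 0.109) without TGFβ and by -1.97 (adjusted p = 5.88e-13, SE 0.12) with TGFβ, where 144 of the 14749 tested genes had a lower value. The difference between these responses was -0.98 (95% interval -1.32 to -0.65, adjusted p = 7.36e-05), or a 1.98-fold larger drop in TGFβ-treated cells. TGFβ lowered Cxcr4 by less in resting cells, with a log2 fold change of -0.36 (adjusted p = 0.00625, SE 0.106), than in Pam3-treated cells (-1.34, adjusted p = 1.21e-09, SE 0.123). The call in resting cells ended without untreated library 1 (-0.26, adjusted p = 0.0718), without TGFβ library 1 (-0.28, adjusted p = 0.063) and without the 5 libraries of high mitochondrial share (-0.32, adjusted p = 0.155), and without those 5 the difference of responses was -0.80 (adjusted p = 0.0589).

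Cx3cr1, the fractalkine receptor, was the lowest of the tested receptors and had 33 to 342 counts per library. Untreated libraries 1 to 3 held 2.66, 2.38 and 2.22 CPM, TGFβ libraries 1.33, 1.53 and 0.865 CPM, Pam3 libraries 8.71, 9.08 and 6.32 CPM, and Pam3+TGFβ libraries 3.4, 3.67 and 4.36 CPM. The groups did not overlap, and Pam3 libraries were the highest. Pam3 raised Cx3cr1 3.32-fold without TGFβ (log2 fold change 1.73, adjusted p = 1.97e-07, SE 0.192) and 3.07-fold with TGFβ (1.62, adjusted p = 6.87e-07, SE 0.211). In cells without TGFβ, 167 of the 14749 tested genes had a higher log2 fold change with Pam3. TGFβ changed Cx3cr1 by -0.96 on the log2 scale (adjusted p = 0.000607, SE 0.217) in resting cells and by -1.08 (adjusted p = 2.65e-05, SE 0.184) in Pam3-treated cells. The difference between the Pam3 responses was -0.11 with a 95% interval from -0.71 to 0.48 (adjusted p = 0.857), and its sign turned without TGFβ library 2 (0.05). Without the 5 libraries of high mitochondrial share, the TGFβ effect in resting cells was -0.69 (adjusted p = 0.0841).

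Ccrl2, the atypical chemerin receptor, was the only one of the 5 tested receptors whose TGFβ effect was called in opposite directions with and without Pam3. Its level was 10.7, 11.9 and 10.2 CPM in untreated libraries 1 to 3, 4.57, 3.21 and 4.43 CPM with TGFβ, 17.9, 16.2 and 15.3 CPM with Pam3, and 31.4, 32.5 and 30.5 CPM with both. The 3 TGFβ libraries were the lowest of the 12 and the 3 Pam3+TGFβ libraries the highest, and no groups overlapped. TGFβ lowered Ccrl2 2.69-fold in resting cells (log2 fold change -1.43, adjusted p = 1.01e-10, SE 0.116) and raised it 1.91-fold in Pam3-treated cells (0.93, adjusted p = 1.61e-08, SE 0.099). Pam3 raised it 1.51-fold without TGFβ (0.59, adjusted p = 0.000127, SE 0.103) and 7.76-fold with TGFβ (2.96, adjusted p = 5.73e-17, SE 0.113). The difference of these responses was 2.36 on the log2 scale (95% interval 2.05 to 2.68, adjusted p = 1.67e-11), and 207 of the 14749 tested genes had a higher one. Over the 22 alternative settings for each comparison (21 for the difference) the calls and directions of Ccrl2 held, with the difference between 2.19 and 2.61.

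The receptors were also set against the whole family. Summed over the 6 genes and 18 other chemokine receptors, the level was 189 ± 2.61 CPM per kb in untreated and 201 ± 5.09 in Pam3-treated cells, against 83.2 ± 1.42 in TGFβ-treated cells and 98.5 ± 4.06 with both. Ccr1 made up 63.2 ± 3.1% of this sum in untreated cells, 65.9 ± 1.32% with Pam3, 79.3 ± 0.991% with TGFβ and 80.3 ± 0.67% with both. The share of Ccr2 was 21.0 ± 2.43% in untreated cells and 18.1 ± 1.16% with Pam3, but 3.6 ± 0.219% with TGFβ and 2.3 ± 0.456% with both. Cxcr4 held its largest share with TGFβ alone (10.6 ± 0.785%, against 5.95 ± 0.506% in untreated cells), although its level fell there, since the sum fell more. Ccrl2 rose from 1.87 ± 0.36% of the sum with TGFβ to 12.2 ± 0.649% with both agents.

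**Figure D3:**
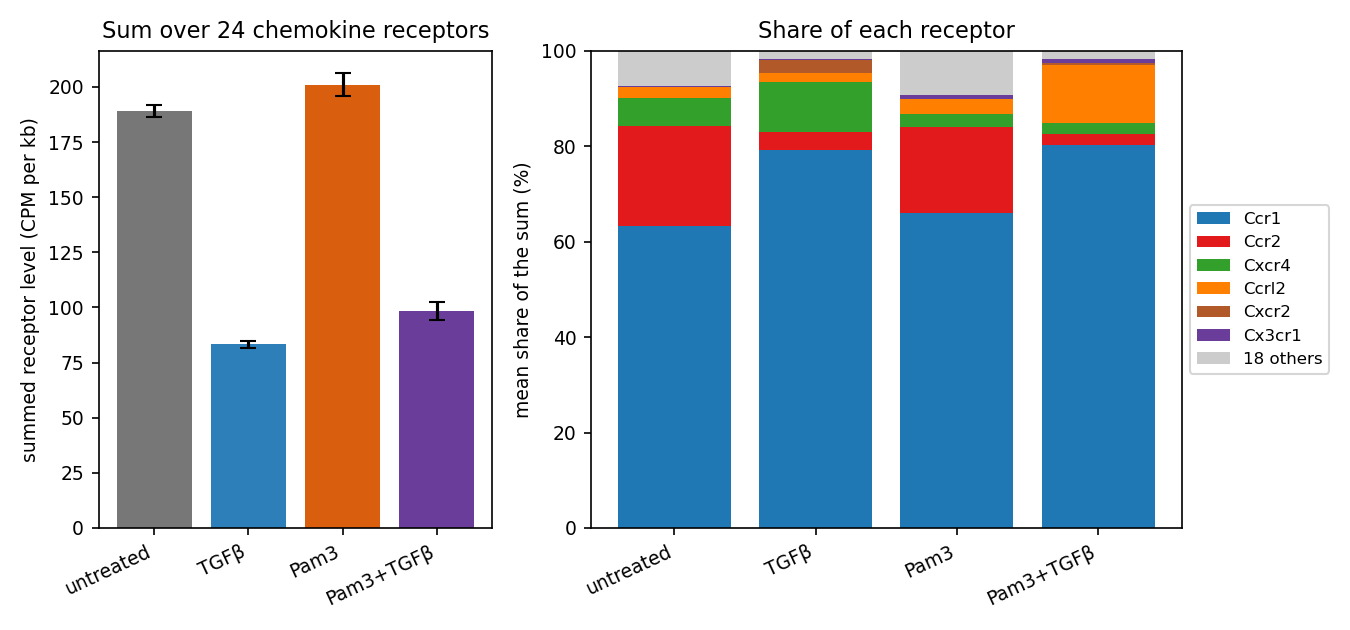
Left, summed level of 24 chemokine receptors in CPM per kb (mean and SD of 3 libraries per group); right, mean share of each receptor in that sum (percent). The sum is 83.2 with TGFβ and 189 CPM per kb without it in resting cells, Ccr2 (red) shrinks from 21.0% to 3.6%, and Ccrl2 (orange) takes 12.2% with both agents.

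Of the 18 other receptors, 4 were tested and 9 had under 10 counts in every library. Cxcr2, the neutrophil receptor for CXC chemokines, went against the TGFβ-lowered receptors. Its counts in libraries 1 to 3 were 5, 3 and 0 in untreated cells, 234, 260 and 280 with TGFβ, 0, 0 and 0 with Pam3, and 36, 36 and 47 with both. The 6 libraries with TGFβ were above the 6 without it. TGFβ raised it by 6.53 on the log2 scale in resting cells (adjusted p = 2.15e-12, SE 0.404), and with Pam3 it was at least 12.1-fold higher with TGFβ than without (3 counts per library as the floor of the group at 0). Pam3 in TGFβ-treated cells lowered it (-2.71, adjusted p = 3.8e-08, SE 0.284). Other neutrophil markers in these libraries were at 0 (Mpo) or at most 34 counts (Ltf, Camp, Elane and Ly6g).

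Ligands of the receptors were measured in the same cells. Of 17 listed, 16 were in the table and 9 were tested, and 6 of the 9 were called lower and 1 higher with TGFβ in resting cells, beside 28.1% lower and 22.9% higher over all tested genes. Their median log2 fold change was -2.08 beside -0.01. That median is the value of Ccl12, a Ccr2 ligand that was not called (adjusted p = 0.184). Ccl12 had at most 8 counts in any library of these groups, too low to judge this comparison. Pam3 in TGFβ-treated cells raised 6 of the 9, beside 20.4% of all tested genes, with a median of 4.01 beside -0.02. Of these 6, Ccl7 had 0 counts in every TGFβ library and 3, 0 and 8 with both agents. It thus overlapped and is too low to judge there. Ccl12 was also low, with 2, 0 and 0 counts in TGFβ libraries 1 to 3 and 25, 9 and 8 with both. Ccl6 and Ccl9, ligands of Ccr1, were the most abundant. Ccl6 was 9550 ± 578 CPM in untreated and 10400 ± 176 CPM in Pam3-treated cells, 5050 ± 270 CPM in TGFβ-treated cells and 4590 ± 225 CPM with both, so the Ccr1 ligand and Ccr1 were both lower with TGFβ (Ccl6 log2 fold change -0.92, adjusted p = 3.14e-13, SE 0.0556). Ccl9 rose with Pam3 without TGFβ (0.86, adjusted p = 1.19e-10, SE 0.0622) and with it (1.44, adjusted p = 7.99e-16, SE 0.063).

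Ccl2, the main ligand of Ccr2, was 58.4, 67.4 and 67.5 CPM in untreated libraries 1 to 3 and 0.111, 0.0741 and 0.183 CPM with TGFβ. It was 69.8, 69.2 and 73.2 CPM with Pam3 and 7.48, 6.64 and 6.01 CPM with both. Ligand and receptor were thus both low in TGFβ-treated cells, but Pam3 raised Ccl2 there (log2 fold change 5.74, adjusted p = 3.32e-18, SE 0.19) while Ccr2 stayed between 13.4 and 18.3 CPM. Ccl7, another Ccr2 ligand, had 33 to 71 counts in untreated cells and 0 in all 3 TGFβ libraries, which makes it at least 17.6-fold higher in untreated cells (3 counts per library as the floor). Ccl3, a ligand of Ccr1, changed by -5.07 with TGFβ in resting cells (adjusted p = 3.48e-14, SE 0.132) and by 4.85 with Pam3 in TGFβ-treated cells (adjusted p = 9.64e-14, SE 0.132). For the related chemokine Ccl4, the same comparisons gave -4.94 (adjusted p = 3.74e-13, SE 0.216) and 4.01 (adjusted p = 2.83e-11, SE 0.225).

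Fractalkine, encoded by Cx3cl1, moved opposite to its receptor Cx3cr1 in 3 of the 4 comparisons. Cx3cl1 was 13.2, 13.4 and 12.3 CPM in untreated libraries 1 to 3, 39.6, 38.9 and 42.6 CPM with TGFβ, 7.62, 10.6 and 9.21 CPM with Pam3, and 39.2, 35.1 and 39.6 CPM with both. The libraries with TGFβ were the highest, where Cx3cr1 was lower than in the matching libraries without TGFβ. TGFβ raised Cx3cl1 in resting cells (log2 fold change 1.64, adjusted p = 1.13e-13, SE 0.0939) and in Pam3-treated cells (2.05, adjusted p = 2.92e-15, SE 0.0972), and Pam3 lowered it in cells without TGFβ (-0.51, adjusted p = 0.000544, SE 0.0996). With Pam3 in TGFβ-treated cells Cx3cl1 was not called (-0.09, adjusted p = 0.474, overlapping libraries), while Cx3cr1 rose. The ratio of Cx3cl1 to Cx3cr1 in CPM within a library ran from 0.875 to 1.46 with Pam3 alone, from 4.98 to 5.65 in untreated cells, from 9.07 to 11.5 with both agents and from 25.4 to 49.3 with TGFβ alone, without overlap.

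For the other receptors, ligands were barely detected or did not pass the test. Cxcl12, the ligand of Cxcr4, had at most 2 counts and Rarres2, which encodes chemerin, at most 3 counts in a library. Ccl19, Ccl21a and Ccl21b, the Ccr7 ligands in the table, had 0 counts in all 12 libraries. Mif, a cytokine that also binds Cxcr4, was 13.7 ± 2.8 CPM in untreated cells and 11.3 ± 1.14 CPM with TGFβ. That difference was not called (log2 fold change -0.28, adjusted p = 0.0614). It was called without untreated library 3 (-0.44, adjusted p = 0.00181) or TGFβ library 2 (-0.34, adjusted p = 0.045). It was also called with the replicate block (-0.27, adjusted p = 0.0471) and with no filter on counts (-0.28, adjusted p = 0.0255).

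Ccrl2 shares its ligand with Cmklr1, the signalling receptor for chemerin. Cmklr1 was 66.8, 78.5 and 83.5 CPM in untreated libraries 1 to 3, 0.166, 0.0247 and 0.131 CPM with TGFβ, 154, 142 and 160 CPM with Pam3, and 0.873, 0.535 and 0.474 CPM with both. All 6 libraries with TGFβ were below 1 CPM and all 6 without it above 60 CPM. TGFβ changed Cmklr1 by -9.47 on the log2 scale in resting cells (adjusted p = 3.48e-17, SE 0.2, from 1 to 6 counts per TGFβ library) and by -7.94 in Pam3-treated cells (adjusted p = 1.52e-17, SE 0.156). Pam3 raised it by 1.00 without TGFβ (adjusted p = 5.7e-07, SE 0.0956), though limma on the authors' normalized values gave an adjusted p of 0.155. The ratio of Ccrl2 to Cmklr1 in CPM was 0.122 to 0.16 in untreated cells and 0.0955 to 0.116 with Pam3, against 27.5 to 130 with TGFβ alone and 36.0 to 64.2 with both agents, ranges that overlap.

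Among 15 other chemoattractant receptors, 12 were tested, and TGFβ in resting cells lowered 7 and raised 3 of them, beside 28.1% and 22.9% of all tested genes. C3ar1, the receptor for complement C3a, changed by -4.43 (adjusted p = 1.88e-22, SE 0.094) and Ltb4r1, the high-affinity leukotriene B4 receptor, by -5.26 (adjusted p = 1.3e-15, SE 0.239). The complement C5a receptors were higher with TGFβ in resting cells, C5ar1 by 0.96 (adjusted p = 3.45e-15, SE 0.0466) and C5ar2 by 2.62 (adjusted p = 2.08e-18, SE 0.0882). Ptafr, the receptor for platelet-activating factor, had a larger Pam3 response in TGFβ-treated cells, as Ccrl2 had. Unlike Ccrl2, Ptafr was lower with TGFβ in Pam3-treated cells (-0.24, adjusted p = 0.012, SE 0.0739). Its Pam3 response was 0.51 (adjusted p = 2.74e-05, SE 0.0742) without TGFβ and 2.52 (adjusted p = 1.22e-16, SE 0.0808) with it, and the difference was 2.02 (adjusted p = 9.39e-12, SE 0.108). Pam3 raised the formyl peptide receptors Fpr1 (0.69, adjusted p = 1.38e-10, SE 0.0501) and Fpr2 (0.85, adjusted p = 2.12e-11, SE 0.0536) in cells without TGFβ.

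Of 37 genes for signalling and shut-off of these receptors, 34 were tested, and TGFβ in resting cells lowered 19 and raised 6, beside 28.1% and 22.9% of all tested genes. Their median log2 fold change was -0.17 beside -0.01 over all tested genes. Rgs1, which limits chemokine signalling through those G proteins, was 12.5 ± 0.52 CPM in untreated cells and 0.204 ± 0.0932 CPM with TGFβ (-5.94, adjusted p = 1.34e-16, SE 0.245). The arrestins moved apart with TGFβ in resting cells, Arrb1 at -0.41 (adjusted p = 1.74e-08, SE 0.0441) and Arrb2 at 0.86 (adjusted p = 6.44e-15, SE 0.0431). Pam3 in TGFβ-treated cells raised 14 of the 34 and lowered 9, beside 20.4% and 18.1%. The PI3Kγ adaptors Pik3r5 and Pik3r6 had Pam3 responses that differed with TGFβ by 0.75 (adjusted p = 1.46e-09, SE 0.0627) and by 0.60 (adjusted p = 5.07e-07, SE 0.0705).

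For each tested receptor, the genes with the most similar pattern over the 12 libraries were found. They had the smallest root mean square difference of log2 CPM, after each gene was centred on its own mean. As they were chosen from these same values, like changes and steady ratios to the receptor follow from the choice and are a description only. For Ccrl2 the nearest was Tnfaip3, which encodes the NF-κB inhibitor A20, at a difference of 0.137, where Ccrl2 itself had an SD of 1.08 over the libraries. The next were Samd9l (0.255) and C1s1 (0.272). Tnfaip3 was 43.5 ± 2.55 CPM in untreated and 69.6 ± 3.42 CPM in Pam3-treated cells, 15.9 ± 0.378 CPM in TGFβ-treated cells and 120 ± 6.47 CPM with both, and the ratio of Ccrl2 to Tnfaip3 stayed between 0.206 and 0.281 in all 12 libraries. Nearest to Ccr2 were Cd93 (0.203), Gpnmb (0.225) and Ly9 (0.28), with an SD of 1.945 for Ccr2. The TGFβ effects in resting cells were -3.85 for Cd93 (adjusted p = 3.86e-24, SE 0.0604) and -3.86 for Gpnmb (adjusted p = 8.35e-25, SE 0.0589), beside -3.73 for Ccr2. Ccr1 was nearest to Rap2a (0.054), Dse (0.055) and Cdc42se2 (0.056), with its own SD of 0.415. Cxcr4 was nearest to Cnnm2 (0.236), Tcp11l2 (0.239) and Fam214a (0.27), with an SD of 0.892. Cx3cr1, with an SD of 0.994, had its nearest genes farther away, Dach1 at 0.311, Plpp1 at 0.384 and LOC100039029 at 0.392.

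**Figure D4:**
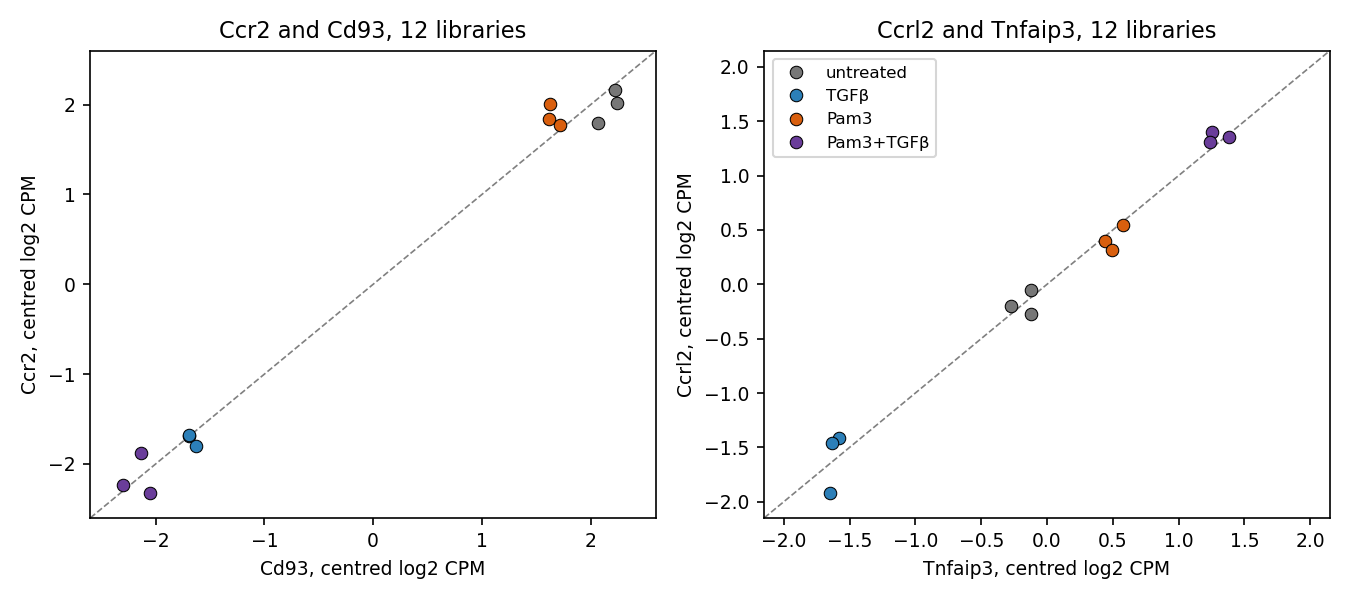
Log2 CPM centred on the mean of the 12 libraries for Ccr2 against Cd93 (left) and Ccrl2 against Tnfaip3 (right), 1 point per library coloured by group, with the line of equal values dashed. Ccr2 falls into libraries with and without TGFβ. The Ccrl2 points follow the line through 4 separate groups in the order TGFβ, untreated, Pam3 and both. Cd93 and Tnfaip3 were picked as the nearest genes in these same libraries, so closeness to the line follows from that choice.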

How the data were processed

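Polyadenylated RNA was measured in 12 libraries, 3 per group, and groups were taken from the sample titles. Per the labels, a stranded mRNA kit was used. Per the submitters' processing notes, the tools were bcl2fastq 2.20.0, FastQC 0.11.7, Bowtie2 2.4.1, featureCounts from Subread 2.0.0 and DESeq2 1.36.0 in R 4.2.1, with the build GRCm39. Bowtie2 does not split reads over introns, so reads across exon junctions can be lost. The deposited counts are whole reads per gene symbol (40847 genes, 17090 with none). The deposited normalized values are a signal scaled by the authors and served 1 alternative, limma 3.58.1 on log2(value + 1).

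Genes passing filterByExpr (minimum count 10) were fitted with edgeR 4.0.16 in R 4.3.3 (TMM scaling, robust quasi-likelihood, 4 group means over 12 libraries, 8 residual degrees of freedom) with Benjamini-Hochberg adjustment and a threshold of 0.05. SE is the log2 fold change divided by the square root of F. CPM uses TMM-scaled library sizes, and CPM per kb divides by the union of annotated exons. Alternatives were other scalings, DESeq2 1.42.0, other filters, a replicate block, each library left out, the 6 libraries compared alone, a mitochondrial covariate and 5 libraries left out. The last pair was chosen after seeing the data. The steps were tested on simulated data. Promoter windows and positions were read from GRCm39 with GENCODE M39.

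The receptors, the lists of ligands, other receptors and signalling genes, and the cell type markers were chosen with earlier results of these data known. From each list the text names called genes of large change (up to 3 per comparison, at least 10 counts in each library of the higher group, no overlap), ligands with at least 10 counts in a library, and the 3 nearest genes by pattern. Genes within 300 kb of Ccr2 and some listed genes are not reported here. C5ar1, Arrb1 and Arrb2 fall outside that rule and were chosen after their values were seen. Deviations of same-numbered libraries from their group means correlated between -0.174 and 0.3, so the numbers were not taken as pairs. Between replicates of a group, the chi-square of counts was 9.99 to 220 times its degrees of freedom, so each library was kept as its own sample. The reads carry no molecular identifiers, so floors cover counting error only.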

Additional observations from a re-analysis of the deposited data

Results flagged for a closer look

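The Pam3 response of Ccrl2 differed with TGFβ: the response with TGFβ minus that without was 2.36 on the log2 scale, upward in both settings and larger with TGFβ. For Cxcr4 the same difference was -0.98, downward in both settings and larger with TGFβ. Both rest on a test of the difference itself in edgeR over 12 libraries.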

How the results depend on the processing

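Without the 5 libraries of high mitochondrial share, the receptors called numbered 3 instead of 5 for Pam3 with TGFβ, 3 instead of 5 for TGFβ without Pam3, 3 instead of 4 for Pam3 without TGFβ and 1 instead of 2 for the difference of Pam3 responses. That setting has fewer libraries, and the TGFβ and Pam3 groups keep 1 each. Counts of receptors called stayed within 1.5 times under the other scalings, filters, DESeq2, limma and each library left out. With the replicate block they were 4, 4, 5, 5 and 2 for Pam3 without TGFβ, Pam3 with TGFβ, TGFβ without Pam3, TGFβ with Pam3 and the difference. The Cx3cr1 difference of responses ran from -0.34 without TGFβ library 3 to 0.05 without TGFβ library 2 over the libraries left out, and was not called in either. Scaling moved the median of all genes by at most 0.062 on the log2 scale. The third gene nearest to Cx3cr1 became Arl5c with a prior count of 1. With the longest transcript as length, Ccr2 in untreated cells was 46.9 CPM per kb. Depth limits the statements on Ccr7, Cxcl12 and Rarres2.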
